A study of Mus musculus with 14 samples.

Results

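Heat shock factor and chaperone genes form a set of 10 named genes among the 24463 listed in each library. They were taken by symbol: Hsf1, Hspa1a, Hspa1b, Hspa8, Dnajb1, Hsph1, Hsp90aa1, Hsp90ab1, Hspd1 and Hspe1. All 10 were found. No cut on level was used to choose them, but the set was chosen with earlier results of these data known. Levels are given in FPKM, fragments counted relative to transcript length and library size, so they can be compared between genes per length.

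The libraries came from mouse leukemic stem cells, a bone marrow model of chronic myeloid leukemia. Lineage-negative marrow cells of control mice (WT) or of mice lacking Tcf1 and Lef1 (dKO) were grown in 15% fetal bovine serum with thrombopoietin at 20 ng/ml and stem cell factor at 50 ng/ml. All groups, controls included, carried the p210 BCR-ABL retrovirus, given at 2 times 24 h apart, and GFP+ cells that were Lin-, Sca1+ and c-Kit+ were sorted 48 h after isolation. The WT and dKO groups were untreated, with 3 libraries each. Control cells treated for 6 h with the vehicle DMSO (3 libraries), with 20 µM prostaglandin E1 (PGE1, 3 libraries) or with 20 µM prostaglandin E2 (PGE2, 2 libraries) made up the rest of the 14. The labels name no Cre driver, age or sex, and do not tell whether replicates are separate animals or cultures. P-values therefore measure only the spread between these libraries, which may be technical.

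Chaperones bind unfolded proteins and release them in cycles of ATP use, with help from cofactors. Under heat or other protein damage, the transcription factor Hsf1 binds repeated nGAAn units in promoters, called heat shock elements, and raises the inducible members of the family. Hsp90 has BCR-ABL and many other kinases among its clients, and Hspd1 with Hspe1 forms the folding chamber of the mitochondrial matrix.

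Groups follow the sample titles. The genotype field disagrees with the title for dKO replicate 1, entered there as wild type, and DMSO replicate 1, entered as deficient. Tcf7, the gene of Tcf1, ranged from 1.15 to 1.48 FPKM in WT, and was listed at 0.14, 0.02 and 0.13 FPKM in the dKO libraries. In DMSO it was at 0.85 to 1.53 FPKM, with replicate 1 at 1.03. The Y-linked genes Ddx3y, Eif2s3y, Kdm5d and Uty were listed at 0 in all 3 dKO libraries and above 1 FPKM in each other library, so genotype and sex cannot be told apart. Depth was 31268116 to 33813809 reads in the 6 untreated libraries and 19042213 to 22708474 in the 8 treated ones. Of the sort markers, Kit, Ly6a and Cd34 were all present. T and NK cell markers were at or near 0 in every group, with a highest summed level of 0.708 FPKM. Monocyte markers were not low: 5 genes summed to 717 to 755 FPKM in WT and 86.9 to 99.7 FPKM in dKO. In bulk RNA, fewer cells of a type and less RNA per cell cannot be told apart.

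Promoter sequences are shown for the genes with the widest range of levels, Hspa1a and Hspa1b, and for Hspd1 and Hspe1, which start head to head. They come from RefSeq on GRCm38.p6, a different build from the mm9 used for the expression values. Of the 10 genes, 6 matched the promoter table, with 9 start sites. Capitals mark matches to a pair of facing heat shock units, GAANNTTC or TTCNNGAA, searched on both strands. The Hspa1a sequence is chr17:34972157-34972306 and the Hspa1b sequence chr17:34959239-34959388, both on the minus strand and ending at the base before the start site. The Hspd1 and Hspe1 sequence is chr1:55087933-55088147 on the plus strand. It holds the 215 bases between the start sites, and reads toward Hspe1.
Hspa1a: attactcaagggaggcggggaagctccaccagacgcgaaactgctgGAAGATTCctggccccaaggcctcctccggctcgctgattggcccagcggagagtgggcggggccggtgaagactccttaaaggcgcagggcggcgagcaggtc
Hspa1b: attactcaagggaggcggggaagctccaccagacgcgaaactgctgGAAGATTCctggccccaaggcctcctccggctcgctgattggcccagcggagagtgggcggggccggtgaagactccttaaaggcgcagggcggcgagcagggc
Hspd1 and Hspe1: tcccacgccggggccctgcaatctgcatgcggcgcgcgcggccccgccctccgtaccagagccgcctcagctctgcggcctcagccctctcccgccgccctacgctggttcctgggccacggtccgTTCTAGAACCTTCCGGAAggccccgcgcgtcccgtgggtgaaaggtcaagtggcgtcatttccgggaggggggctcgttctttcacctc

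The Hspa1a and Hspa1b sequences differed at 1 of the 150 bases printed, and at 3 of the 250 bases before the start. Each holds a pair of units at positions 104 to 97 before the start. The sequence between Hspd1 and Hspe1 holds overlapping pairs that together make the 3-unit patterns GAANNTTCNNGAA and TTCNNGAANNTTC. Seen from Hspe1 they lie 89 to 72 bases before the start, and from Hspd1 144 to 127 bases before it. A 3-unit pattern was also found in both Hsph1 windows, after the start site. Neither Dnajb1 window held a match, nor did the window of a further Hspd1 start site. Over all 32851 promoter windows of 300 bases, 0.603% held a 3-unit pattern and 15.1% a pair, and every 3-unit match also contains a pair. The cAMP response element TGACGTCA, in 1.79% of all windows, was in none of the 9. These matches are descriptions of letters, not of binding.

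Hsf1, the master regulator of the cytosolic heat shock response, stood at 17.4, 18.3 and 17.8 FPKM in WT and at 15.0, 18.1 and 18.4 FPKM in dKO. It was at 15.5, 15.8 and 15.7 FPKM in DMSO, at 12.4, 11.1 and 11.8 FPKM in PGE1 and at 14.8 and 16.3 FPKM in PGE2. The 3 PGE1 libraries were below all 11 others, while DMSO and PGE2 overlapped. Among all genes Hsf1 ranked 3392 in WT and 4812 in PGE1.

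The inducible Hsp70 genes Hspa1a and Hspa1b, which encode nearly the same protein, were close to silent in untreated cells. Hspa1a was at 0.0877, 0.0446 and 0.216 FPKM in WT and at 0.0114, 0.127 and 0.0432 FPKM in dKO, on 32 and 17 reads in all. In treated cells it was at 6.38, 7.55 and 8.13 FPKM in DMSO, at 10.5, 55.8 and 6.87 FPKM in PGE1 and at 6.16 and 5.86 FPKM in PGE2. All 8 treated libraries were above all 6 untreated ones, and PGE1 replicate 2 stood far above every other library. Hspa1b followed the same pattern, at 0.327, 0.266 and 0.225 FPKM in WT and 0.285, 0.284 and 0.301 FPKM in dKO. It reached 7.97, 9.90 and 10.4 FPKM in DMSO, 11.9, 65.1 and 8.69 FPKM in PGE1 and 6.34 and 7.12 FPKM in PGE2. Of the 32-base windows in Hspa1b transcripts, 67.3% also occur in Hspa1a, and the sources used here do not state how shared reads were assigned. The sum of both genes is less affected by that split: 0.389 ± 0.0688 (SD, n = 3) FPKM in WT, 16.8 ± 2.18 (n = 3) in DMSO and 12.7 ± 0.336 (n = 2) in PGE2, with 22.4, 121 and 15.6 FPKM in the 3 PGE1 libraries.

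Hspa8, the constitutive cytosolic Hsp70, was at 120, 120 and 119 FPKM in WT and at 123, 132 and 138 FPKM in dKO. It was at 102, 99.8 and 98.1 FPKM in DMSO, 65.1, 74.7 and 59.7 FPKM in PGE1, and 113 in both PGE2 libraries. No neighbouring groups overlapped in its order, which ran from dKO through WT, PGE2 and DMSO to PGE1.

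Dnajb1 encodes the J-domain partner that starts the ATP cycle of Hsp70, and Hsph1 an Hsp110 that helps it release ADP. Dnajb1 was the flattest member apart from 1 library: 16.2 to 19.1 FPKM in 13 libraries, and 25.8 FPKM in PGE1 replicate 2. Its WT values were 16.7, 16.6 and 16.9 FPKM, those of DMSO 19.1, 17.8 and 16.4 FPKM, and those of PGE1 17.8, 25.8 and 16.2 FPKM. Every neighbouring pair of groups overlapped. Hsph1 was at 38.8, 38.7 and 40.4 FPKM in WT, 37.1, 46.2 and 44.3 FPKM in dKO, and 45.5, 46.8 and 48.4 FPKM in DMSO. It was at 40.5 and 41.4 FPKM in PGE2, and at 37.4, 55.3 and 34.5 FPKM in PGE1. Here the lowest and the highest value of all 14 libraries both belonged to PGE1.

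The cytosolic Hsp90 pair was dominated by Hsp90ab1, the constitutive β form. It was at 1025, 1022 and 1045 FPKM in WT and 1204, 1227 and 1294 FPKM in dKO, and ranked 8 and 6 of 24463 genes there. In treated cells it was at 879, 837 and 817 FPKM in DMSO, 813, 899 and 785 FPKM in PGE1 and 912 and 921 FPKM in PGE2. DMSO and PGE1 overlapped, and the other neighbours in the order did not. Hsp90aa1, the α form that heat can induce, was at 59.6, 62.5 and 61.6 FPKM in WT and 72.7, 79.3 and 77.2 FPKM in dKO. It was at 52.2, 55.0 and 54.1 FPKM in DMSO, 35.7, 38.2 and 32.5 FPKM in PGE1 and 55.1 and 55.9 FPKM in PGE2. Its 3 PGE1 libraries lay below all others and its 3 dKO libraries above all others.

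Hspd1, the mitochondrial Hsp60, had the same order of groups. It was at 75.7, 76.2 and 77.2 FPKM in WT and at 88.4, 101 and 103 FPKM in dKO. Treated cells were lower, at 52.6, 48.8 and 48.6 FPKM in DMSO, 28.6, 28.3 and 23.3 FPKM in PGE1 and 63.3 and 62.6 FPKM in PGE2. No neighbouring groups overlapped. Hspe1, the lid of the same chamber, was at 62.9, 68.2 and 62.2 FPKM in WT and 70.1, 77.0 and 85.6 FPKM in dKO. It was at 50.0, 41.6 and 39.5 FPKM in DMSO, 34.1, 39.2 and 27.7 FPKM in PGE1 and 49.8 and 48.7 FPKM in PGE2, where only DMSO and PGE2 overlapped.

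**Figure D1:**
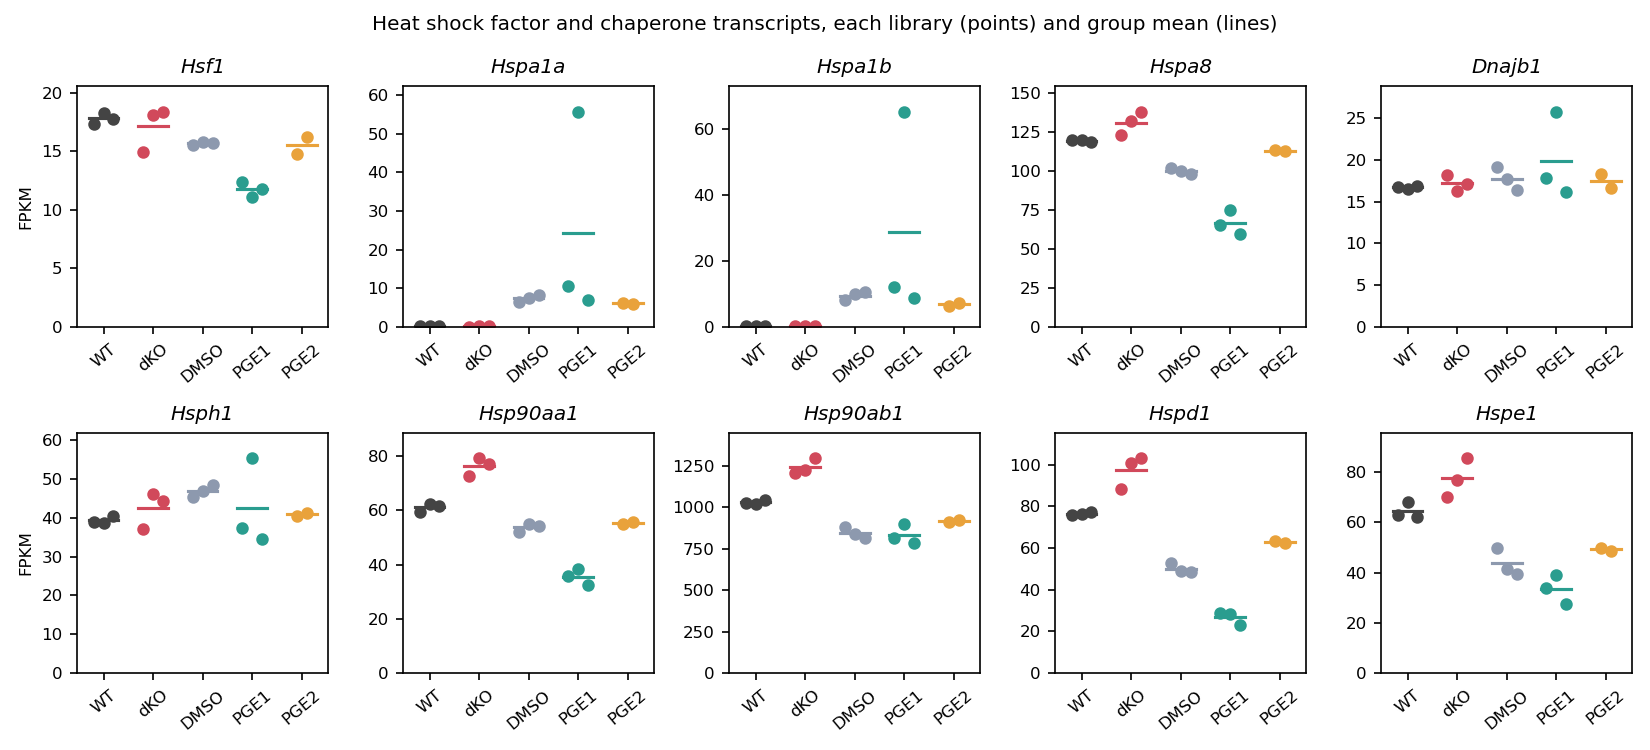
FPKM (vertical axis, linear from 0, scaled per gene) of the 10 genes in the 14 libraries, grouped as WT, dKO, DMSO, PGE1 and PGE2; points are libraries and lines are group means. Hspa1a and Hspa1b lie below 1 FPKM in the 6 untreated libraries and above 5 FPKM in the 8 treated ones, and PGE1 replicate 2 is the highest for both.

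In the dKO libraries, the Hsp90 genes and the mitochondrial pair were higher than in WT. Of the 10 genes, 8 passed the minimum of 1 FPKM on average over the 6 libraries, and 4 of those were called higher and 0 lower at an adjusted p below 0.05 (limma on log2(FPKM + 1), adjusted over all 10721 genes tested). Over all genes tested, 18.0% were called higher and 22.9% lower. Hspd1 was 1.28-fold higher (97.4 ± 7.92 against 76.4 ± 0.758 FPKM, SD, n = 3 each), a log2 difference of 0.34 ± 0.06 (SE) with a limma adjusted p of 0.00291. Hsp90aa1 rose by 0.31 ± 0.04 in log2 (limma adjusted p = 0.00107) and Hsp90ab1 by 0.27 ± 0.04 (limma adjusted p = 0.00197). Hspe1 rose by 0.26 ± 0.07 (limma adjusted p = 0.0245). For each of these 4 genes all dKO libraries were above all WT libraries. The share of all genes separated in this way is not given here, so this separation is only a description.

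The remaining members did not pass. Hspa8 was 1.10-fold higher, with all 3 dKO libraries above WT, and missed the threshold (log2 difference 0.13, limma adjusted p = 0.0510). It passed without dKO replicate 1 (limma adjusted p = 0.00349), with median-of-ratios scaling (0.0229) and with a minimum mean of 5 FPKM (0.0491). Without dKO replicate 1 Hsph1 passed too (0.20 in log2, limma adjusted p = 0.00388), which was at 0.11 with all libraries (limma adjusted p = 0.304). Dnajb1 differed by 0.03 and Hsf1 by -0.06 (limma adjusted p = 0.587 and 0.578). The call of Hspe1 was lost when WT replicate 1 or 3, or dKO replicate 2 or 3, was left out (limma adjusted p from 0.0551 to 0.0849), and when no minimum level was set (0.0527). Quantile normalization ended the calls of Hspe1 (0.18, limma adjusted p = 0.0530) and Hsp90ab1 (0.10, limma adjusted p = 0.0676). Hspa1a and Hspa1b were below the minimum, and without one their differences were -0.07 and 0.02 (limma adjusted p = 0.479 and 0.714).

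The wider chaperone network was counted over 10 lists with 102 genes, of which 85 passed the minimum in this comparison. Like the members, these lists were chosen with earlier results of these data known. In dKO 45 of them were called higher and 4 lower, with a median log2 difference of 0.16 against -0.01 over all genes tested. Of the cytosolic folding chamber TRiC and its feeder prefoldin, 12 of 14 genes were higher and 0 lower. The subunit genes Tcp1 and Cct2 stood at 181 against 151 FPKM and 221 against 189 FPKM. Other Hsp70 and Hsp110 genes had 4 of 5 higher and exchange factors 4 of 6. In the list of other heat shock factors only Hsf2 and Hsbp1 were tested, and neither was called. In that of small heat shock proteins only Hspb6 and Hspb11 were tested, and neither was called. Among Hsp90 cochaperones 8 of 15 were higher and 0 lower, led by the immunophilins Fkbp5 (39.9 against 31.0 FPKM) and Fkbp4 (224 against 178 FPKM). Other mitochondrial chaperones had 7 of 12 higher, with Hspa9, the mitochondrial Hsp70, at 161 against 132 FPKM. The endoplasmic reticulum paralogs had 5 of 7 higher, among them Hspa5 (BiP) at 543 against 436 FPKM, Hsp90b1 at 482 against 389 FPKM and Hyou1 at 136 against 98.2 FPKM. J-domain genes were split, 4 of 18 higher and 4 lower, and Dnajb14 was lower at 2.61 against 4.42 FPKM. With the members left aside, 5 of 12 other heat shock element targets were higher and 0 lower. Those higher include Tcp1, Fkbp4 and Stip1, which are also counted in the lists above, so this list is not a separate set.

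Several other marker groups moved in the same comparison. All 5 monocyte markers were lower in dKO, as were 5 of 5 neutrophil markers (summed level 215 to 277 against 376 to 391 FPKM), 4 of 4 megakaryocyte markers, 3 of 3 mast cell and basophil markers and 2 of 3 erythroid markers, while 1 of 2 B cell markers was higher. Of 13 immediate early genes, which answer to growth signals and to cell handling, 12 were lower, with a summed level of 156 to 230 against 788 to 801 FPKM. The sort marker Ly6a, which encodes Sca1, averaged 11.3 FPKM in WT but 3.12 FPKM in dKO. The part of these differences in the chaperone results was not tested.

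Under PGE1 Hspd1, Hsp90aa1, Hspa8, Hsf1 and Hspe1 were lower than in DMSO, while Hsp90ab1 overlapped with it. All 10 genes passed the minimum in the fit of the 8 treated libraries. Against DMSO 0 were called higher and 5 lower (limma, 11242 genes tested), where 23.6% of all genes tested were higher and 25.5% lower. Hspd1 was 1.87-fold lower (26.8 ± 2.98 against 50.0 ± 2.26 FPKM, SD, n = 3 each), a log2 difference of -0.88 ± 0.08 (SE) with a limma adjusted p of 5.86e-05. Hsp90aa1 fell by 0.59 ± 0.07 in log2 (limma adjusted p = 1.67e-04). Hspa8 was lower by -0.59 ± 0.08 (66.5 ± 7.58 against 99.9 ± 1.84 FPKM, limma adjusted p = 4.73e-04), and Hsf1 fell by 0.39 ± 0.07 (limma adjusted p = 0.00125). In each of these 4 genes every PGE1 library was below every DMSO library. The share of all genes separated in this way is not given here, so this separation is only a description. Hspe1 fell by 0.37 ± 0.13 (limma adjusted p = 0.0374), without overlap, but its call was lost in 8 of the 16 alternatives (limma adjusted p = 0.124 without DMSO replicate 1).

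For Hspa1a, Hspa1b, Dnajb1 and Hsph1 the size or direction of the difference depended on 1 library, PGE1 replicate 2. Mean Hspa1a was 3.32-fold and mean Hspa1b 3.03-fold above DMSO, with log2 differences of 1.05 ± 0.60 and 0.96 ± 0.59 (SE) that did not pass (limma adjusted p = 0.174 and 0.208). Without PGE1 replicate 2 the log2 differences were 0.20 and 0.11 (limma adjusted p = 0.325 and 0.553). Without PGE1 replicate 3 the Hspa1a difference was 1.62 and passed (limma adjusted p = 0.0436). Dnajb1 was at 0.13 (limma adjusted p = 0.488) and turned to -0.06 without PGE1 replicate 2. Hsph1 was at -0.17 (limma adjusted p = 0.366), and without PGE1 replicate 2 it was -0.37 and called lower (limma adjusted p = 0.00104). Hsp90ab1 did not differ by more than the replicate spread (-0.02, 95% interval -0.25 to 0.20, limma adjusted p = 0.867).

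PGE1 replicate 2 also had the highest level of 2 further genes of the lists, singled out after their values were seen. The small heat shock protein Hspb1 was at 5.28 FPKM there and at 0.00 to 0.47 FPKM in the other 13 libraries. Dnaja4, a cytosolic J-domain gene, was at 3.77 FPKM there and at 1.68 and 2.15 FPKM in the other PGE1 libraries. The metallothionein Mt1, which binds zinc and answers to metals, was at 1422 FPKM in this library against 388 and 400 FPKM. The cause of this library's position was not tested.

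**Figure D2:**
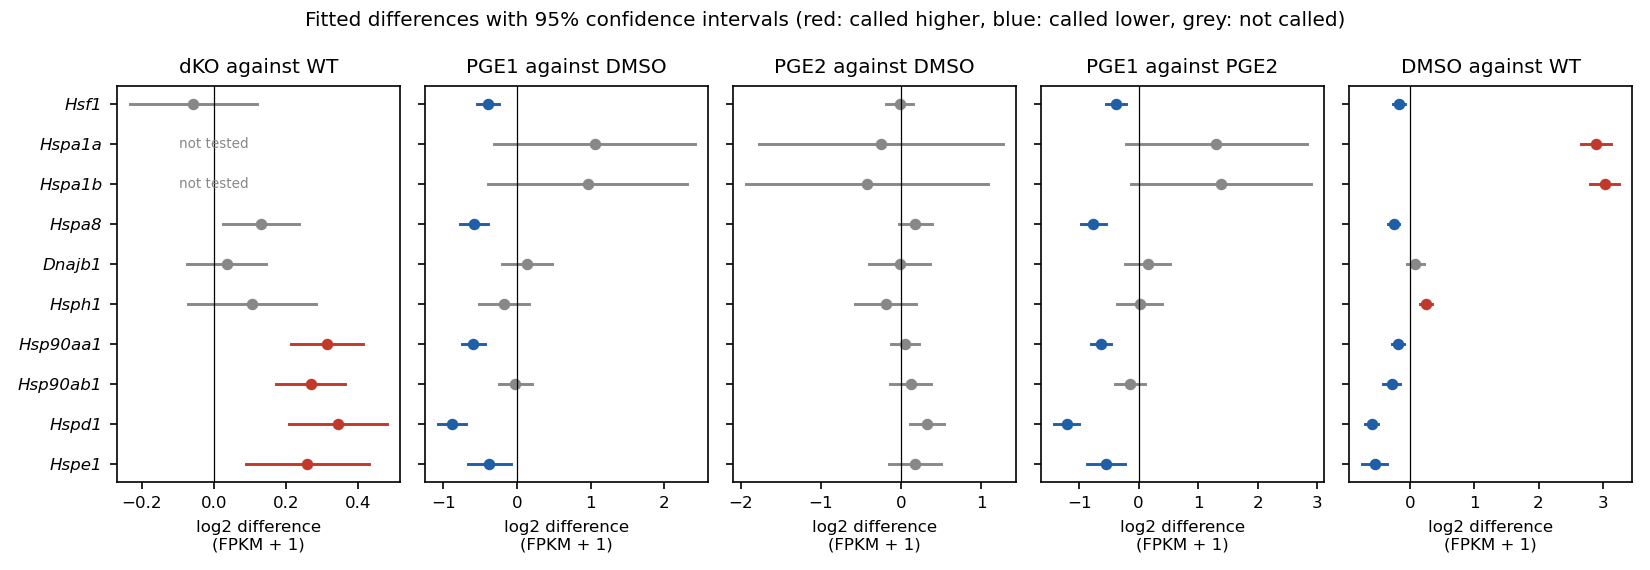
Log2 differences on the log2(FPKM + 1) scale for each member, with 95% limma intervals, in the 5 comparisons, each with its own horizontal scale; red was called higher, blue lower and grey neither (adjusted p below 0.05). In PGE1 against DMSO the intervals of Hspa1a and Hspa1b span from below 0 to above 2, while that of Hspd1 lies wholly below 0.

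Across the wider lists PGE1 gave 10 genes higher and 40 lower of 87 tested, with a median log2 difference of -0.21 against 0.01 over all genes tested. TRiC and prefoldin had 10 of 14 lower and 1 higher, with Cct6a at 51.9 against 104 FPKM and Cct8 at 80.8 against 127 FPKM. Of Hsp90 cochaperones 9 of 15 were lower and 2 higher, with Fkbp4 at 45.0 against 99.7 FPKM, Ppid at 13.7 against 27.4 FPKM and the Hsp90 activator Ahsa1 at 67.2 against 99.9 FPKM. The endoplasmic reticulum paralogs had 6 of 7 lower and 0 higher, with Hspa5 at 214 against 411 FPKM. Other mitochondrial chaperones had 7 of 12 lower and 1 higher, with Trap1, the mitochondrial Hsp90, at 27.4 against 45.5 FPKM. Exchange factors had 4 of 6 lower and 0 higher, and Bag2 was at 3.29 against 9.23 FPKM. J-domain genes again went both ways, 4 of 19 higher and 2 lower. Dnajb2 was at 7.97 against 3.96 FPKM and Dnajb4 at 14.6 against 9.12 FPKM, whereas the ribosome-bound Dnajc2 was at 19.1 against 32.6 FPKM. Among other heat shock element targets 7 of 12 were lower and 2 higher, with Dedd2 at 28.8 against 15.8 FPKM and Cacybp at 19.6 against 38.8 FPKM. Those lower include Fkbp4 and Stip1, which are also counted among the cochaperones. Hsf2 was not called, at 4.07 against 3.34 FPKM.

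In PGE1 libraries monocyte markers summed to 545 to 694 FPKM against 718 to 856 FPKM in DMSO, with 3 of 5 lower and 1 higher. Neutrophil markers were lower in 5 of 5. Kit was higher, at 42.2 against 26.1 FPKM, and Cd34 lower, at 19.4 against 40.9 FPKM. Of the other lists, erythroid markers had 2 of 3 higher and 1 lower, mast cell and basophil markers likewise 2 of 3 higher and 1 lower, and megakaryocyte markers 1 of 4 higher. Immediate early genes had 3 of 13 higher and 6 lower, and summed to 478 to 564 FPKM against 916 to 966 FPKM. The part of these shifts in the chaperone results was not tested.

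PGE2 at the same dose and time gave no call among the members. The comparison used the same DMSO libraries as that of PGE1, so these comparisons are not independent. Of the 10 genes 0 were higher and 0 lower by limma, where 0.996% of all genes tested were higher and 4.57% lower. At an unadjusted p below 0.05 there was 1, Hspd1. The share of all genes below that unadjusted threshold is not given here, so this count is not a result about the members. Hspd1 was 1.26-fold above DMSO (62.9 ± 0.551 against 50.0 ± 2.26 FPKM, SD), a log2 difference of 0.33 ± 0.09 with a limma p of 0.00698 and a limma adjusted p of 0.0833. Its call appeared without PGE1 replicate 2 or 3 (limma adjusted p = 0.0482 and 0.0271). A fit of the DMSO and PGE2 libraries alone called 3 of the 10 genes: Hspd1 higher (limma adjusted p = 0.0115), and Hsph1 and Hspa1b lower (limma adjusted p = 0.0468 and 0.0476). That fit also called far more of all genes, 710 higher and 1019 lower of 11181 tested. Both PGE2 libraries lay below all DMSO libraries for Hsph1, Hspa1a and Hspa1b, and above them for Hspd1, Hspa8, Hsp90aa1 and Hsp90ab1. The share of all genes separated in this way is not given here. With so few libraries, the separations are a description and not a result about the members. In the wider lists 0 of 87 genes were called, with a median log2 difference of 0.05.

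PGE1 and PGE2 differ in structure by a double bond in one side chain, which PGE2 has and PGE1 lacks. They formed 1 pair of compounds, compared at the matched dose of 20 µM and time of 6 h. Under PGE1 0 members were higher and 5 lower than under PGE2, where 27.2% of all genes tested were higher and 26.7% lower. Hspd1 was 2.35-fold lower under PGE1 (log2 difference -1.21 ± 0.09, limma adjusted p = 2.47e-05). Hspa8 was lower by -0.76 ± 0.09 (113 ± 0.285 FPKM under PGE2, limma adjusted p = 1.84e-04) and Hsp90aa1 1.56-fold lower (-0.63 ± 0.08, limma adjusted p = 1.85e-04). Hspe1 was lower by -0.55 ± 0.14 (limma adjusted p = 0.0105), a call lost without PGE2 replicate 1 or 2 (limma adjusted p = 0.0631 and 0.0523), and Hsf1 by -0.38 ± 0.07 (limma adjusted p = 0.00252). In all 5 genes every PGE1 library was below both PGE2 libraries. The share of all genes separated in this way is not given here, so this separation is only a description.

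The other 5 members did not pass between the compounds, and their intervals were wide. Hspa1a and Hspa1b were 1.30 and 1.39 higher in log2 under PGE1, with 95% intervals of -0.22 to 2.82 and -0.12 to 2.90. All 3 PGE1 libraries were above both PGE2 libraries for each. Without PGE1 replicate 2 the Hspa1b difference was 0.53 and passed (limma adjusted p = 0.0195), while Hspa1a was 0.44 and did not (limma adjusted p = 0.0566). Without PGE1 replicate 3 both passed (limma adjusted p = 0.0324 for Hspa1a and 0.0330 for Hspa1b). The interval of Dnajb1 was -0.23 to 0.53, that of Hsph1 -0.36 to 0.40, and that of Hsp90ab1 -0.39 to 0.11. Without PGE1 replicate 2 Hsph1 was lower under PGE1 by -0.18 (limma adjusted p = 0.0356). In the wider lists 12 genes were higher and 45 lower of 87, with a median of -0.27 against 0.02 over all genes tested. Fkbp4 showed the widest gap among the named cochaperones, at 45.0 FPKM under PGE1 and 141 FPKM under PGE2. Among markers, neutrophil and monocyte genes were each lower in 4 of 5 under PGE1, with monocyte sums of 545 to 694 against 939 to 947 FPKM. Kit was higher and Cd34 lower, erythroid markers had 2 of 3 higher, mast cell and basophil markers 2 of 3 higher and 1 lower, and megakaryocyte markers 1 of 4 higher and 1 lower. Immediate early genes had 2 of 13 higher and 7 lower. The part of these markers in the difference between the compounds was not tested.

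DMSO-treated control cells differed from untreated control cells in most members. Of the 10 genes 3 were called higher and 6 lower by limma, where 26.0% of 11115 genes tested were higher and 30.7% lower. Hspa1a was 63.4-fold and Hspa1b 34.5-fold higher in FPKM. On the log2(FPKM + 1) scale their differences were 2.90 ± 0.10 and 3.03 ± 0.10 (SE). Both passed the minimum only through the DMSO libraries, so they could only be called higher, and their p-values are not given. With both left aside, Hsph1 was the only member called higher. Hsph1 was 1.19-fold higher (46.9 ± 1.45 against 39.3 ± 0.980 FPKM, limma adjusted p = 0.00137), and Dnajb1 was not called (0.08, limma adjusted p = 0.282).

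Hspd1, Hspe1, Hsp90ab1, Hspa8, Hsp90aa1 and Hsf1 were lower in DMSO. Hspd1 differed by -0.60 ± 0.04 in log2 (limma adjusted p = 2.14e-05) and Hspe1 by -0.56 ± 0.08 (limma adjusted p = 8.16e-04), 1.53-fold and 1.47-fold lower. Hsp90ab1 was lower by -0.29, Hspa8 by -0.26, Hsp90aa1 by -0.18 and Hsf1 by -0.17, with limma adjusted p of 0.00351, 7.05e-04, 0.00527 and 0.00775. Hsp90aa1 lost its call under quantile normalization (limma adjusted p = 0.181), and Hsp90ab1 when no minimum level was set (limma adjusted p = 0.0516). In the wider lists 13 of 87 genes were higher and 43 lower. Those higher included the cofactor Bag3 (13.9 against 8.78 FPKM), Dnaja4 (2.04 against 0.864 FPKM) and the Hsp90 cochaperone Unc45a (22.7 against 15.9 FPKM). Fkbp4 was lower, at 99.7 against 178 FPKM, and TRiC and prefoldin had 10 of 14 lower. Treatment, time in culture, library depth and any difference in preparation cannot be told apart here. Of 13 immediate early genes 9 were higher and 3 lower in DMSO. Neutrophil markers had 2 of 5 higher and 3 lower, mast cell and basophil markers 2 of 3 higher and 1 lower, monocyte markers 2 of 5 higher, and erythroid and megakaryocyte markers 1 higher each. Ly6a was higher and Cd34 lower. The part of these shifts was not tested.

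Shares between related genes do not depend on scaling between libraries. Inducible transcripts made up 0.325% ± 0.0588 (SD, n = 3) of the cytosolic Hsp70 sum (Hspa1a, Hspa1b and Hspa8) in WT and 0.266% ± 0.0387 (n = 3) in dKO. They made up 14.4% ± 1.83 (n = 3) in DMSO and 10.1% ± 0.263 (n = 2) in PGE2. In PGE1 the share was 25.6%, 61.8% and 20.7%, above the highest DMSO library at 15.9% in all 3. Both terms of the ratio moved, since Hspa8 was also lower in those libraries. Hsp90aa1 gave 5.61% of the Hsp90 sum in WT, 6.00% in DMSO and 5.71% in PGE2, and 4.08% ± 0.117 (n = 3) in PGE1. The Hspe1 share of the Hspe1 and Hspd1 sum was 44.8% to 48.7% in DMSO, 43.9% ± 0.189 (n = 2) in PGE2 and 55.6% ± 2.16 (n = 3) in PGE1. These are the genes of the shared promoter printed above.

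Of the Hsph1 and Hspa8 sum, Hsph1 made up 24.4% to 25.4% in WT, 30.9% to 33.0% in DMSO, 26.3% to 26.8% in PGE2 and 36.5% to 42.6% in PGE1. Mean Hsph1 itself was not higher in PGE1 than in DMSO (42.4 against 46.9 FPKM), while mean Hspa8 was lower (66.5 against 99.9 FPKM). All 4 shares separated PGE1 from DMSO without overlap, and 2 of the 4, those of inducible Hsp70 and Hsph1, separated DMSO from WT. Over the 20 two-sided exact permutation tests the smallest p that 3 against 3 libraries allow is 0.1, and 0.2 for 3 against 2, so none could pass; the lowest adjusted p was 0.25. Of the 32-base windows in Hspe1 and Hspd1 transcripts, 58.1% and 52.4% occur in other genes' transcripts, so their levels are uncertain. The same holds for Hspa8 (73.6%) and Hsp90aa1 (53.7%), less for Hsp90ab1 (14.2%), and hardly for Hsf1 (0.422%), Dnajb1 (0.444%) or Hsph1 (0%).

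**Figure D3:**
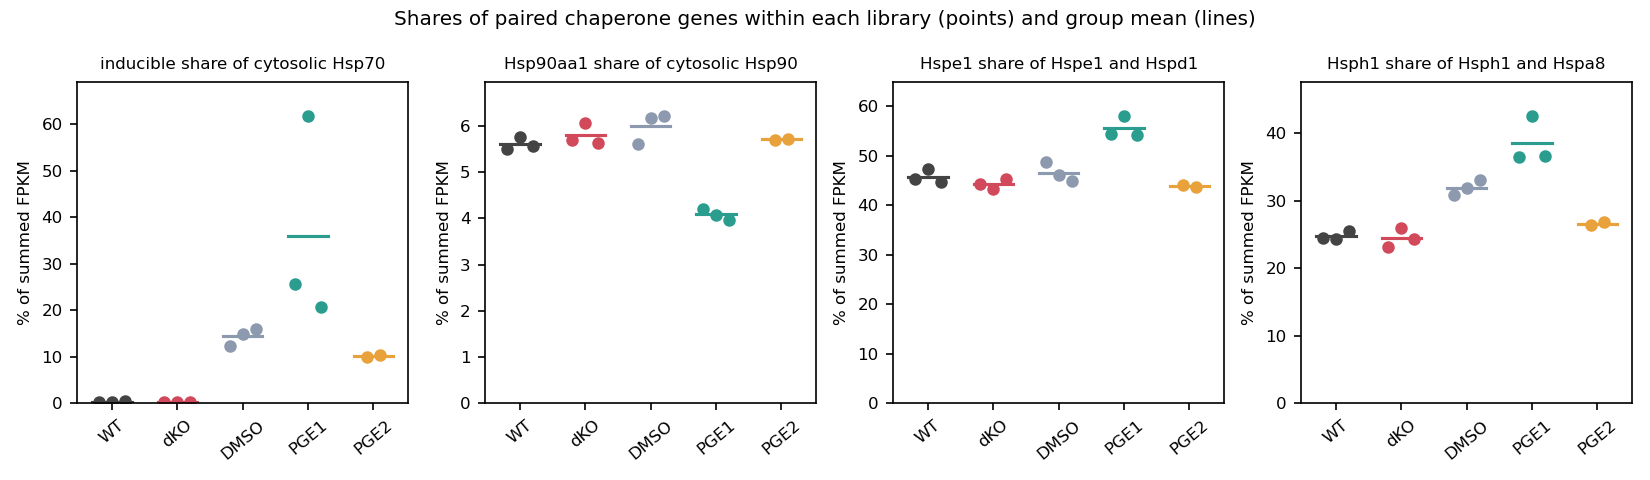
Share in percent of inducible Hsp70, Hsp90aa1, Hspe1 and Hsph1 in their sums, per library in the 5 groups; points are libraries and lines are means. The 3 PGE1 libraries lie outside the DMSO range in every panel, and for inducible Hsp70 they spread from 20.7% to 61.8%.

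Over the 14 libraries the members fell into blocks, given here as a description, since libraries share groups and depth. Hspd1 correlated with Hspa8 (Pearson r = 0.982, n = 14), Hsp90aa1 (0.982), Hspe1 (0.956) and Hsf1 (0.899). Hspa1a and Hspa1b had r = 0.998 with each other and -0.84 with Hspd1 for both. Dnajb1 and Hsph1 sat between, at r = 0.584 with each other, 0.632 between Dnajb1 and Hspa1a, and -0.02 between Hsph1 and Hspd1. Among 7396 genes searched, those most like Hspd1 were Bzw2, Eif3b and Eif5a (r = 0.998, 0.997 and 0.997). Those most like Hsp90ab1 were Poc1a, Fen1 and the TRiC gene Cct2 (0.990, 0.987 and 0.985), and those most like Hsf1 were Ehd4, Telo2 and Gpn1 (0.966, 0.964 and 0.959). Hspa1b was followed, after Hspa1a, by Ndel1 and Panx1 (0.974 and 0.963). Likeness was weaker for Dnajb1, led by Rad9a, Coro1a and Mien1 (0.941, 0.921 and 0.906), and for Hsph1, led by Lypla2, Pmm2 and Clta (0.853, 0.839 and 0.834).

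**Figure D4:**
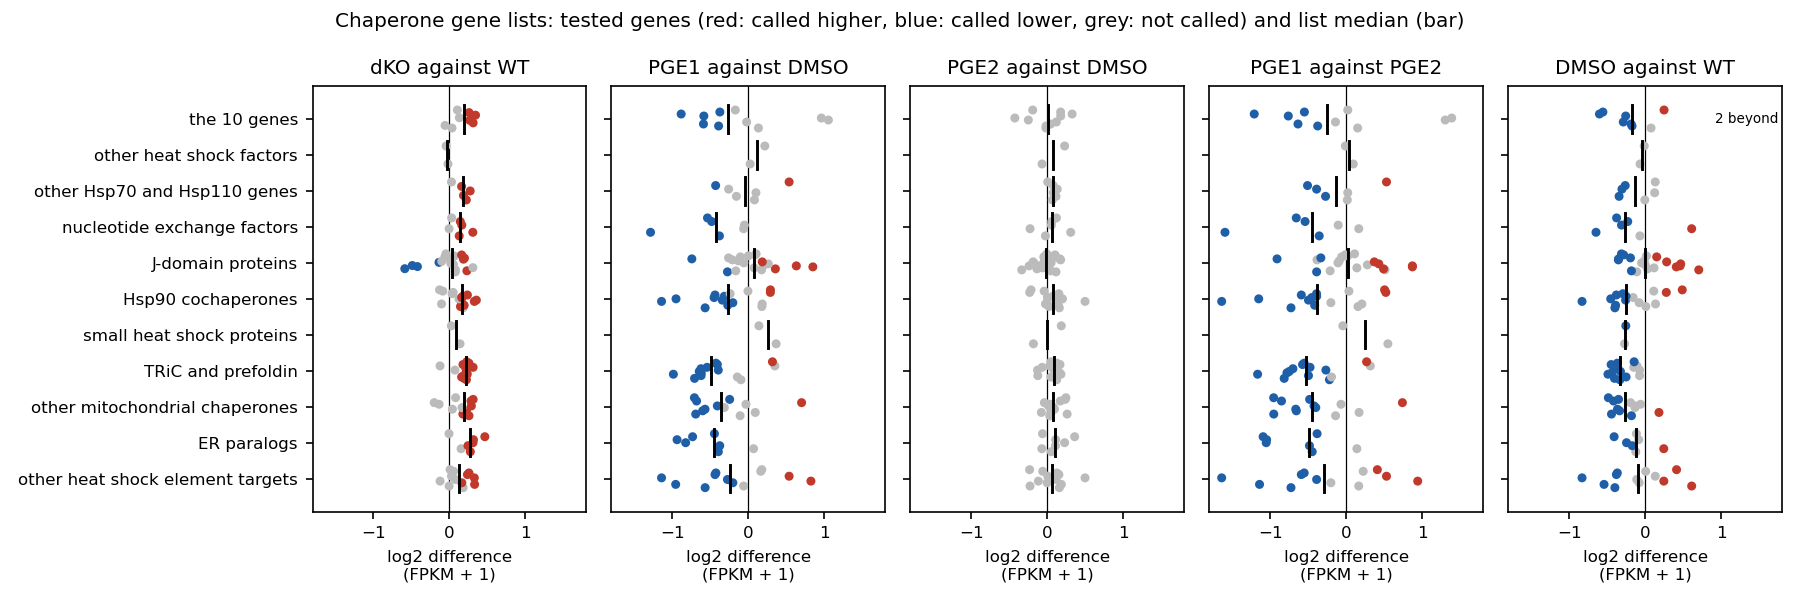
Log2 difference on the log2(FPKM + 1) scale of each tested gene in the 10 chaperone lists and among the 10 genes, for the 5 comparisons; red was called higher, blue lower and grey neither (limma, adjusted p below 0.05), and bars are medians. TRiC and prefoldin has 12 of 14 higher in dKO and 10 of 14 lower under PGE1, and no list has a call under PGE2 against DMSO.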

How the data were processed

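The authors deposited 1 table of FPKM values per library; per the submitters' processing notes these came from CASAVA 1.8, TopHat and Cufflinks on mm9. Annotation, strand and shared-read handling were not given in the sources used here. Reads per gene and library depths were recovered from the steps of the deposited FPKM values, whole within 0.001 for 100% of 300 low genes, and served to state depth and to compare replicates with counting noise, not to test genes. Over chaperone, marker and handling genes with 1000 to 10000 reads, every replicate pair differed on average by more than counting noise. The mean squared difference was 2.08 to 97.6 times it, so none was counted as 1 library. Medians were lower, from 0.676 (WT replicates 1 and 3) and 0.769 (DMSO replicates 2 and 3) to 21.9 (PGE1 replicates 2 and 3). Some pairs were thus close to counting noise at most of these genes. With Python 3.11.15, values were set as log2(FPKM + 1), and limma 3.58.1 in R 4.3.3 (trend, two-sided, Benjamini-Hochberg over all genes tested) was run on genes averaging at least 1 FPKM over the libraries of each fit. WT with dKO, WT with DMSO, and the 3 treated groups were fitted separately. The fit was also run on simulated data with the same spread setting for every gene and library. That run does not cover the uneven spread between replicates seen here. Shares were compared by two-sided exact permutation tests.

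Named genes are the 10 members and up to 4 genes per list with the smallest p among those called. The 3 genes most correlated with each of 6 members, among genes averaging at least 5 FPKM, are also named. Clone-type symbols were left out. Hsf2, Hsbp1, Hspb6, Hspb11, Mt1, Hspb1, Tcf7 and the Y-linked genes are added for context. Members and lists were chosen with earlier results of these data known. Promoters came from RefSeq (GRCm38.p6) and shared 32-base windows from GENCODE transcripts. Alternatives were the pseudocount, the minimum level, scaling, the variance trend, a replicate block, fits of only the 2 groups compared, and leaving out each replicate. Precision rests on 2 or 3 libraries per group.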

Additional observations from a re-analysis of the deposited data

How the results depend on the processing

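Of 148 alternative counts of called members or genes, 137 stayed within 1.5 times the main count. Of 824 single values 775 stayed the same. For genes this means the same direction and side of the threshold. For share differences, which had no threshold, it means the same direction and a change below the larger group SD. Members called in dKO against WT went from 4 to 2 under quantile normalization, and the share of higher among all calls there moved from 44.1% to 59.8% (56.1% with median-of-ratios scaling). Members called in PGE2 against DMSO went from 0 to 3 with only the 2 groups in the fit, and ranged from 0 to 1 when a replicate was left out. All genes called there, 626, became 1729 with only the 2 groups and 269 with the replicate block, and ranged from 125 (without PGE2 replicate 2) to 1218 (without PGE1 replicate 2). The replicate block changed no call among the members. Correlations of same-numbered deviations from group means ran from -0.24 to 0.25. With 2 or 3 libraries per group, they cannot settle whether the replicate numbers pair the samples. No scaling moved the median of all genes by over 0.1 in log2.

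Some values changed sign. Leaving out 1 replicate at a time, Dnajb1 ranged from -0.0038 to 0.070 and Hsf1 from -0.11 to 0.033 in dKO against WT (log2 differences). In PGE1 against DMSO, Dnajb1 ranged from -0.059 to 0.26 and Hsp90ab1 from -0.079 to 0.019. In PGE2 against DMSO, Dnajb1 ranged from -0.082 to 0.048 and Hsf1 from -0.081 to 0.050. Between the compounds, Hsph1 ranged from -0.18 to 0.15 and Dnajb1 from -0.042 to 0.28. The Hspe1 share difference in DMSO against WT ranged from -0.34 to 1.61 points, and the Hsph1 share difference in dKO against WT from -1.04 to 0.37. With median-of-ratios scaling Dnajb1 and Hsf1 were 0.014 and 0.015 in PGE2 against DMSO, and Hsph1 was -0.019 between the compounds. The cause was not tested.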
